A study of Sorghum bicolor with 64 samples.

Results

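Enzymes that digest nucleic acid and protein, of families tied to plant cell death, were followed here in 4 sorghum genes. They are Sobic.003G087200, the homolog of the Arabidopsis nuclease *BFN1* and described in the deposited tables as endonuclease 2, Sobic.004G187200, a type II metacaspase described as metacaspase-9, Sobic.004G010000, a serine carboxypeptidase that the study calls the homolog of *SCPL48*, and Sobic.003G325500, a second metacaspase. They were taken by gene ID: the first 3 because the study names them together as programmed cell death genes, and the fourth as a further metacaspase. All 4 of them were among the 16942 genes of the stem table and 2 were among the 16386 genes of the leaf table, of 18832 genes in either. Sobic.004G187200 and Sobic.004G010000 were not analysed in leaves. The gene IDs place the first and the last on chromosome 3 and the other two on chromosome 4, and no coordinates were used here.

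The plants were field-grown Sorghum bicolor near-isogenic lines that differ at the D locus, the dry stalk locus. *DD* plants carry the dominant dry-stalk allele and *dd* plants the recessive juicy-stalk allele, in the same inbred background. Heads were cut off at anthesis in the head removal group and left in place in the control group, and tissue was taken 3 or 10 d later from the inner part of a stem internode, with its outer layer shaved off, and from the middle of a leaf below the flag leaf. These 3 factors of 2 levels each give 8 groups per organ, with 3 or 4 samples per group in the 29 stem samples and 3 per group in the 24 leaf samples. The samples are labelled as biological replicates; nothing says how many plants stand behind each, so the p-values measure the spread between these samples. Each genotype is a single line, so the D locus and any other segment carried with it cannot be told apart.

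As background, programmed cell death in plants removes whole cells during development, as in the xylem and in the pith of dry sorghum stalks, and it also accompanies senescence. Its executioners include vacuolar proteases and nucleases that are made before the vacuole bursts and that then digest the contents of the cell. *BFN1* is an S1/P1-type nuclease of Arabidopsis known from senescing leaves, abscission zones and differentiating xylem. Metacaspases are cysteine proteases that cut after arginine or lysine; type II members lack the N-terminal prodomain of type I members, and metacaspase-9 of Arabidopsis acts in dying xylem cells. Serine carboxypeptidases trim amino acids from the C-terminal end of proteins, mostly in the vacuole. The gene at the D locus, *SbNAC074A* (Sobic.006G147400), encodes a NAC transcription factor that starts pith cell death, and *SbXCP1* (Sobic.007G172100) encodes a xylem-type cysteine protease that acts with it.

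Expression was given as TPM (transcript abundance scaled for transcript length and to a fixed library total). The total was 994406 to 996581 per stem sample and 994771 to 995806 per leaf sample over the genes listed. The number of reads behind these values is unknown, so no counting error can be given. Effects are differences of log2(TPM + 1) from a limma fit with terms for treatment, genotype and day, and a gene was called under an adjusted p of 0.01. In bulk tissue, fewer cells of a type and less RNA per cell cannot be told apart. The labels were checked on *SbXCP1*, whose stem level was 27.4 ± 30.1 TPM in *DD* (SD, n = 14) and 0.127 ± 0.109 TPM in *dd* (SD, n = 15). *SbNAC074A* itself did not differ detectably by genotype in stems (log2 difference -0.03, adjusted p = 0.954). A pair of intact *dd* stem samples at 10 d, replicates 3 and 4, stood apart from the other controls on the first principal component (9.52 and 9.15 against -31.2 to -4.18), inside the range of the head removal samples (-10.3 to 31.0), and results that rest on them are also given without them. Of 19 green leaf tissue marker genes, 14 (73.7%) were called higher after head removal in stems, beside 14.4% of all stem genes. The summed level of the 19 ran from 1804 to 7939 TPM in controls and from 3605 to 10061 TPM after head removal. The part of that tissue in the results below was not tested.

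The 4 genes fell into an abundant and a scarce pair in stems. The *BFN1* homolog Sobic.003G087200 averaged 147 TPM over the stem samples, above 92.1% of the genes of the table, and the metacaspase Sobic.003G325500 averaged 130 TPM, above 90.8%. The type II metacaspase Sobic.004G187200 averaged 2.07 TPM, above only 1.94% of the genes, and the carboxypeptidase Sobic.004G010000 averaged 2.97 TPM, above 6.58%. None of the members was at 0 in any stem sample, but Sobic.004G187200 was under 1 TPM in 13 of 29 samples and Sobic.004G010000 in 9 of 29. They also differed in steadiness: the level of Sobic.003G325500 varied 1.51-fold between its lowest and highest stem sample, that of the *BFN1* homolog 6.82-fold, that of Sobic.004G010000 86.1-fold and that of Sobic.004G187200 185-fold.

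**Figure D1:**
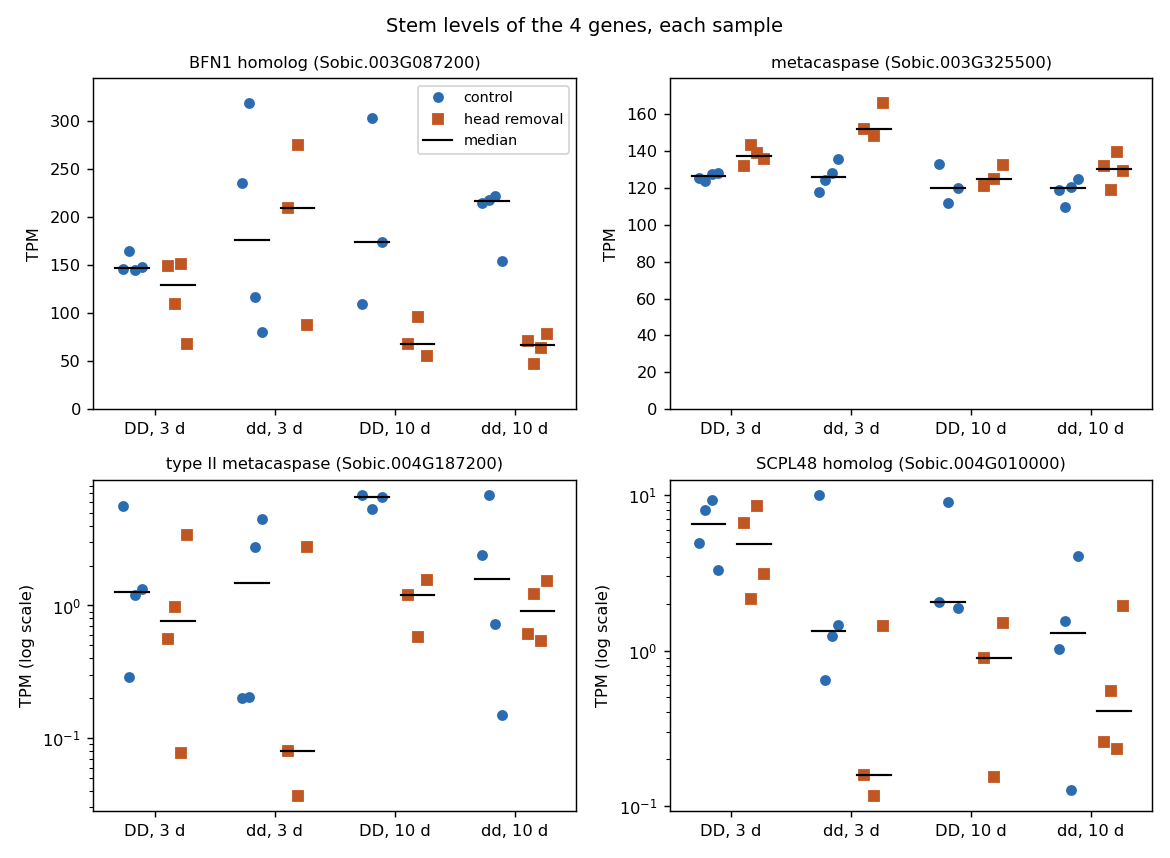
Stem level in TPM of each of the 4 genes in every sample, by genotype and day, with circles for controls, squares for head removal and a bar at each group's median (logarithmic axis for the carboxypeptidase and the type II metacaspase, linear axis from 0 for the other two). At 10 d every head removal sample of the *BFN1* homolog lies between 46.7 and 95.6 TPM, below all controls, while the metacaspase Sobic.003G325500 stays between 110 and 166 TPM throughout.

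The *BFN1* homolog was lower in stems 10 d after head removal, in both genotypes, and differed little at 3 d. At 10 d its level was 109, 303 and 174 TPM in the *DD* controls and 68.3, 95.6 and 55.7 TPM after head removal. In *dd* at 10 d it was 215, 218, 221 and 155 TPM in the controls and 70.6, 46.7, 63.9 and 77.9 TPM after head removal. The 7 decapitated samples all lay below the 7 controls, with a mean 0.375 times that of controls in *DD* and 0.320 times in *dd*. At 3 d the *DD* controls had 146, 164, 144 and 148 TPM and the decapitated *DD* stems 149, 109, 151 and 67.7 TPM. The *dd* controls at 3 d spread from 80.4 to 319 TPM (235, 319, 116 and 80.4) and the decapitated *dd* stems had 209, 275 and 87.6 TPM. At this earlier day the groups overlapped in both genotypes, and the ratio of the means was 0.886.

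Over both days, head removal lowered the *BFN1* homolog by a log2 difference of -0.83 ± 0.23 (SE; 95% interval -1.29 to -0.36, adjusted p = 0.00353). In the same comparison, 23.5% of all stem genes were called lower and 14.4% higher, so a call in this direction was common. The study names this gene, with Sobic.004G187200 and Sobic.004G010000, among cell death enzymes that it examined for suppression by head removal in these same samples, so the stem direction of these 3 genes is not independent evidence. At 10 d the difference was -1.48 ± 0.29 (95% interval -2.07 to -0.88, adjusted p = 0.000287), where 17.3% of genes were called lower. The exact permutation test at 10 d, two-sided with treatment labels exchanged within genotype, gave p = 0.00143, the smallest its 1400 arrangements can give. Complete separation of the 7 controls above the 7 decapitated samples was found for 4.61% of stem genes. At 3 d the log2 difference was -0.16 (95% interval -0.74 to 0.41, adjusted p = 0.680), and the exact permutation p was 0.636.

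The difference between the effects at 10 d and 3 d was -1.31 ± 0.40 (95% interval -2.14 to -0.49). Its unadjusted p in the limma fit was 0.00312 and its adjusted p was 0.125, so the change in the effect of head removal with time did not pass the threshold over all genes. Only 0.0354% of stem genes were called with a more negative effect at 10 d and 0.0118% with a more positive one. Within *dd* at 10 d the drop was called on its own (-1.64, adjusted p = 0.00257, 7.87% of genes called lower), whereas in *DD* it was -1.32 with an adjusted p of 0.0307. The call in *dd* was lost without replicate 2 of the decapitated *dd* stems, and the value over the fits that left out 1 sample ran from -1.76 to -1.49. The genotypes were not tested against each other at 10 d alone. Averaged over both days, the effect in *dd* minus that in *DD* was 0.08 (95% interval -0.75 to 0.90). Leaving out the 2 control samples that stood apart changed the difference at 10 d to -1.53 (exact permutation p = 0.00333, the smallest its 300 arrangements can give). In those 2 samples the gene stood at 221 and 155 TPM, with the other controls.

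By group mean, the *BFN1* homolog ran from 202 TPM in *dd* controls at 10 d through 195 TPM in *DD* controls at 10 d, 191 TPM in decapitated and 188 TPM in intact *dd* stems at 3 d, 151 TPM in intact and 119 TPM in decapitated *DD* stems at 3 d, to 73.2 TPM in *DD* and 64.8 TPM in *dd* 10 d after head removal. Each group overlapped its neighbour in this order. Neither genotype (0.15, 95% interval -0.32 to 0.62, adjusted p = 0.641) nor day (-0.36, adjusted p = 0.203) gave a called effect. Between 3 and 10 d the decapitated *dd* stems differed by -1.42 (adjusted p = 0.0197).

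**Figure D2:**
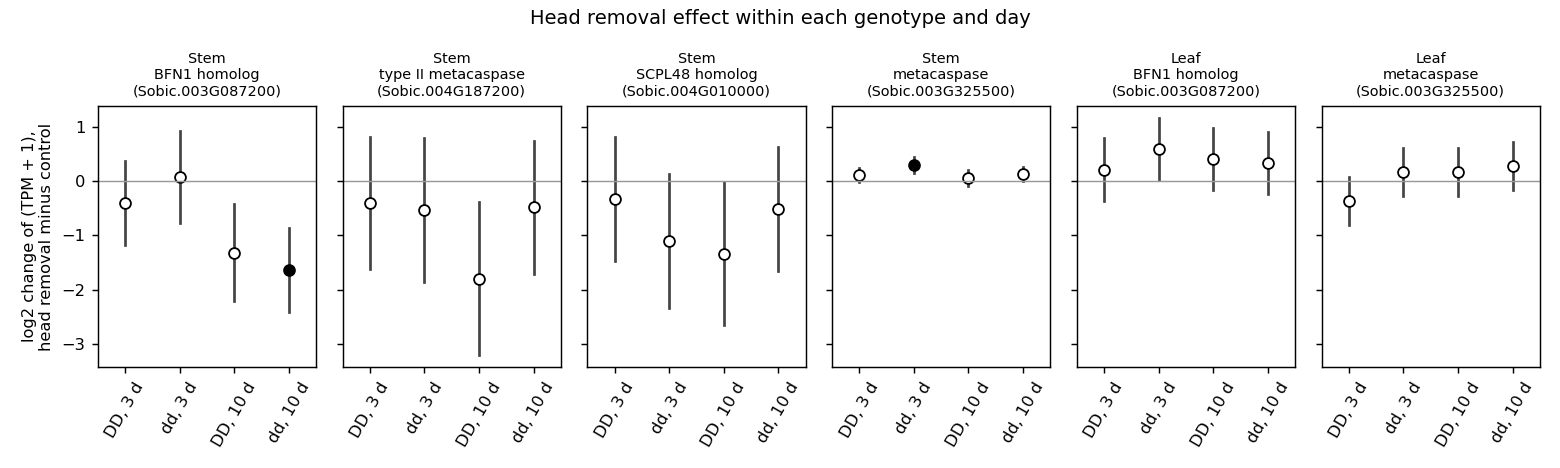
Log2 difference of (TPM + 1), head removal minus control, within each genotype and day for the 4 genes in stems and the 2 in leaves, as points with 95% intervals, filled where the adjusted p was under 0.01. The filled points are the *BFN1* homolog in *dd* stems at 10 d, at -1.64, and Sobic.003G325500 in *dd* stems at 3 d, at 0.30.

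The type II metacaspase Sobic.004G187200 had its highest group mean in intact *DD* stems at 10 d, and was low in all decapitated groups. In the *DD* controls at 10 d its level was 6.79, 5.36 and 6.56 TPM, and after head removal 1.2, 0.583 and 1.57 TPM, with no overlap. In these groups of 3, 30.8% of stem genes had all decapitated samples below all controls. In *dd* at 10 d the controls spread widely, at 2.42, 6.77, 0.731 and 0.149 TPM, around the 0.608, 1.22, 0.542 and 1.53 TPM of the decapitated plants. The 2 lowest of these *dd* controls, at 0.731 and 0.149 TPM, are the samples that stood apart on the first principal component. At 3 d the *DD* controls had 5.65, 0.289, 1.2 and 1.34 TPM and the decapitated *DD* stems 0.560, 0.967, 0.0776 and 3.37 TPM. In *dd* at 3 d the controls had 0.201, 0.205, 2.75 and 4.5 TPM and the decapitated stems 0.0805, 0.0367 and 2.75 TPM. The groups of 3 d overlapped in both genotypes.

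Head removal over both days gave a log2 difference of -0.75 ± 0.31 (95% interval -1.39 to -0.12) for Sobic.004G187200, with an adjusted p of 0.0436 that did not pass the threshold. Every gene of the stem table exceeded 3 TPM in at least 2 samples. This gene did so in 7 of 29, and the only decapitated one among them was a *DD* stem of 3 d at 3.37 TPM. The decapitated samples alone would not have met that condition, so its lower level after head removal is not independent of the choice of genes. At 10 d the difference was -1.14 (adjusted p = 0.0464, exact permutation p = 0.0243) and at 3 d it was -0.47 (adjusted p = 0.428, exact permutation p = 0.365). The value at 3 d was -0.24 without *DD* control replicate 1, -0.26 without *dd* control replicate 4, -0.31 without decapitated *dd* replicate 3 and -0.77 without decapitated *dd* replicate 4. Within *DD* at 10 d it was -1.80 (95% interval -3.21 to -0.38, adjusted p = 0.0563) and within *dd* -0.48 (adjusted p = 0.589). Whether the gene was called depended on the 2 controls that stood apart. Without them, the difference over both days was -0.97 (adjusted p = 0.00852). At 10 d it was then -1.61 (adjusted p = 0.00698, exact permutation p = 0.00333, the smallest its 300 arrangements can give), with -1.42 within *dd* (adjusted p = 0.112). These 2 samples were the lowest *dd* controls of 10 d for this gene. They also lay inside the range of the head removal samples on the first principal component. Leaving them out therefore enlarges the difference by the choice of samples, and the values without them are no added support. Group means ran from 6.24 TPM in *DD* controls at 10 d, through 2.52 TPM in *dd* controls at 10 d, 2.12 TPM in *DD* and 1.91 TPM in *dd* controls at 3 d, to between 0.956 and 1.24 TPM in the 4 decapitated groups, and each group overlapped the next. Genotype (-0.48, adjusted p = 0.236) and day (0.51, adjusted p = 0.185) gave no call.

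The carboxypeptidase Sobic.004G010000 was the only member with a called genotype effect, with lower levels in *dd*, and that call was not stable to leaving out samples. The members were not tested against each other. Its level in the *DD* controls was 4.94, 8.02, 9.29 and 3.28 TPM at 3 d and 2.06, 9.05 and 1.88 TPM at 10 d. In the *dd* controls it was 10.0, 0.648, 1.24 and 1.45 TPM at 3 d and 1.03, 1.56, 0.127 and 4.05 TPM at 10 d. Except for the 1 *dd* control at 10.0 TPM, the *dd* controls of 3 d lay below all *DD* controls of 3 d. The decapitated *DD* stems had 6.62, 2.16, 8.50 and 3.13 TPM at 3 d and 0.890, 0.154 and 1.49 TPM at 10 d. The decapitated *dd* stems had 0.159, 0.116 and 1.43 TPM at 3 d and 0.259, 0.552, 0.231 and 1.94 TPM at 10 d. At 3 d after head removal every *dd* sample was below every *DD* sample, as for 16.8% of stem genes.

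Averaged over treatment and day, *dd* differed from *DD* by -1.03 ± 0.30 on the log2 scale (95% interval -1.64 to -0.43, adjusted p = 0.00926), where 12.7% of stem genes were called lower in *dd* and 5.17% higher. The call lay near the threshold and was lost in 21 of the 29 fits that each left out 1 sample, with differences between -1.18 and -0.92. Head removal gave -0.76 ± 0.29 (95% interval -1.36 to -0.16, adjusted p = 0.0330), with -0.72 at 3 d (adjusted p = 0.177, exact permutation p = 0.132) and -0.93 at 10 d (adjusted p = 0.0805, exact permutation p = 0.0486). Without the 2 controls that stood apart, the value at 10 d was -0.91 (exact permutation p = 0.0367). In *DD* at 10 d the 3 controls lay above the 3 decapitated samples, as for 30.8% of stem genes, with a log2 difference of -1.34 and an adjusted p of 0.122, which was -0.75 without *DD* control replicate 2. The value at 3 d was -0.42 without *dd* control replicate 1. The day effect was -0.64 (adjusted p = 0.0779).

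Group means of Sobic.004G010000 ran from 6.39 TPM in intact and 5.10 TPM in decapitated *DD* stems at 3 d, through 4.33 TPM in *DD* controls at 10 d, 3.34 TPM in *dd* controls at 3 d and 1.69 TPM in *dd* controls at 10 d, to 0.846 TPM in decapitated *DD* stems at 10 d and 0.746 and 0.569 TPM in decapitated *dd* stems at 10 and 3 d. Each group overlapped its neighbour in this order.

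The metacaspase Sobic.003G325500 moved the other way and by little. In *DD* at 3 d its level was 125, 124, 128 and 128 TPM in the controls and 132, 143, 139 and 136 TPM after head removal. In *dd* at 3 d it was 118, 124, 128 and 136 TPM in the controls and 152, 148 and 166 TPM after head removal. Within each genotype the decapitated samples of 3 d all lay above the controls, by a mean ratio of 1.09 in *DD* and 1.23 in *dd*. The same order was found for 7.36% of stem genes in *DD* and 11.7% in *dd*. At 10 d the *DD* controls had 133, 112 and 120 TPM and the decapitated *DD* stems 121, 125 and 133 TPM. In *dd* at 10 d the controls had 119, 110, 120 and 125 TPM and the decapitated stems 132, 119, 140 and 129 TPM, and the groups overlapped in both genotypes.

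Head removal raised Sobic.003G325500 by 0.15 ± 0.036 on the log2 scale (SE; 95% interval 0.08 to 0.22, adjusted p = 0.00109), against a background of 14.4% of stem genes called higher. At 3 d the difference was 0.21 ± 0.046 (95% interval 0.11 to 0.30, adjusted p = 0.00165, 7.86% of genes called higher), and the exact permutation p was 0.000408, the smallest its 2450 arrangements can give. At 10 d it was 0.09 (adjusted p = 0.130, exact permutation p = 0.0900). The effect in *dd* at 3 d was called alone (0.30, adjusted p = 0.00355, 4.66% of genes called higher) and that in *DD* was 0.12 (adjusted p = 0.270). The call in *dd* was lost without control replicate 1 or without decapitated replicate 1 or 4 of that group, with values from 0.25 to 0.33 over the fits that left out 1 sample. Averaged over genotypes, the effect at 10 d minus that at 3 d was -0.12 (adjusted p = 0.445). Averaged over both days, that in *dd* minus that in *DD* was 0.13 (adjusted p = 0.741), so neither difference passed the threshold. The genotypes were not tested against each other at 3 d alone. The level was also lower at 10 d than at 3 d, by -0.13 ± 0.036 (adjusted p = 0.00495), a direction in which 23.7% of stem genes were called. This day call was lost when samples were scaled by median ratios, with -0.04 and an adjusted p of 0.463, and without decapitated *dd* replicate 4 of 3 d or decapitated *DD* replicate 1 of 10 d.

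Ordered by group mean, decapitated *dd* stems at 3 d were highest for Sobic.003G325500, at 155 TPM, followed by decapitated *DD* stems at 3 d at 137 TPM, and these 2 groups did not overlap (148 to 166 TPM against 132 to 143 TPM), an order found for 8.51% of stem genes. Decapitated *dd* stems at 10 d came next at 130 TPM, the remaining groups lay between 119 and 126 TPM, and each group from the second on overlapped its neighbour. Genotype gave 0.04 (adjusted p = 0.379).

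In leaves the levels of both genes analysed were lower than in stems, although the 2 tables were filtered separately and the organs were not tested against each other. The *BFN1* homolog averaged 12.4 TPM in leaves against 147 TPM in stems and Sobic.003G325500 averaged 44.1 TPM against 130 TPM. The highest leaf sample of the *BFN1* homolog, at 20.7 TPM, lay below its lowest stem sample, at 46.7 TPM, and the highest leaf sample of Sobic.003G325500, at 71.4 TPM, lay below its lowest stem sample, at 110 TPM. Of the 14496 genes in both tables, 19.6% had all leaf samples below all stem samples.

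For the *BFN1* homolog in leaves, the *DD* controls had 14.4, 10.1 and 9.07 TPM at 3 d and 15.7, 8.64 and 15.0 TPM at 10 d. The decapitated *DD* plants had 20.7, 10.0 and 10.2 TPM at 3 d and 15.7, 19.4 and 16.6 TPM at 10 d. The *dd* controls had 9.29, 6.41 and 9.03 TPM at 3 d and 10.8, 11.1 and 7.59 TPM at 10 d. Decapitated *dd* plants had 12.9, 10.8 and 14.9 TPM at 3 d and 11.6, 9.53 and 17.7 TPM at 10 d, and only in *dd* at 3 d did the decapitated samples all lie above the controls, as for 9.56% of leaf genes. The log2 difference after head removal was 0.39 ± 0.13 (95% interval 0.12 to 0.65), opposite in sign to that in stems, but its adjusted p of 0.0312 did not pass the threshold. In leaves 4.32% of genes were called higher after head removal and 7.05% lower. The exact permutation p was 0.0950 at 3 d, with a difference of 0.40, and 0.0900 at 10 d, with 0.37. Genotype (-0.30, adjusted p = 0.130) and day (0.20, adjusted p = 0.247) gave no call.

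The metacaspase Sobic.003G325500 in leaves gave no call for any factor. Its level was 58.6, 49.5 and 45.9 TPM in *DD* controls and 32.9, 37.9 and 49.6 TPM in decapitated *DD* plants at 3 d. In *dd* at 3 d it was 49.5, 40.7 and 28.9 TPM in controls and 50.3, 43.8 and 37.4 TPM after head removal. At 10 d the *DD* controls had 39.2, 34.9 and 42.3 TPM, the decapitated *DD* plants 40.0, 42.3 and 49.2 TPM, the *dd* controls 36.3, 49.6 and 41.8 TPM and the decapitated *dd* plants 71.4, 47.0 and 40.4 TPM. The groups overlapped on each day in each genotype. The effect of head removal was 0.06 (95% interval -0.17 to 0.30, adjusted p = 0.704), which leaves out neither the rise seen in stems nor a small drop.

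**Figure D3:**
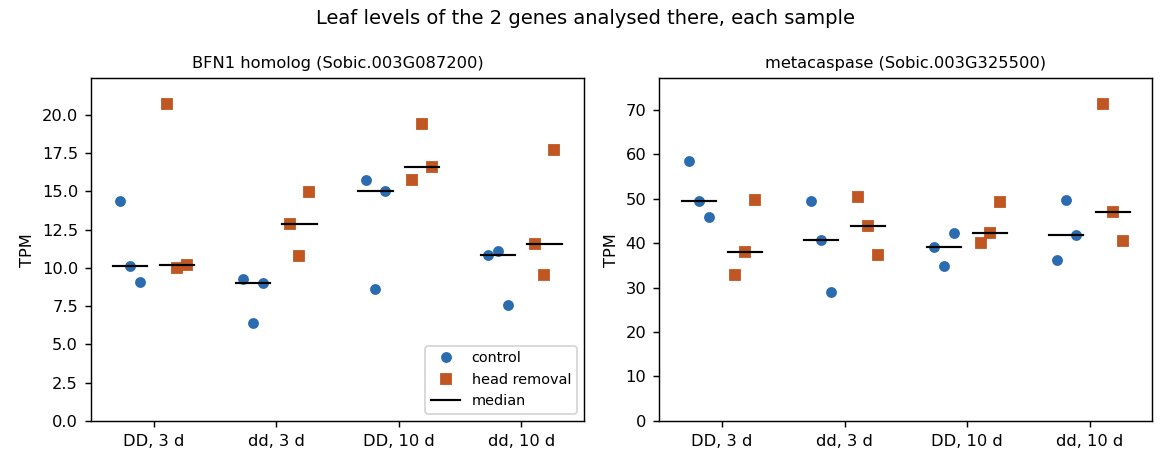
Leaf level in TPM of the *BFN1* homolog and of the metacaspase Sobic.003G325500 in every sample, by genotype and day, with circles for controls, squares for head removal and a bar at each group's median. The *BFN1* homolog lies between 6.41 and 20.7 TPM and the metacaspase between 28.9 and 71.4 TPM, and most groups overlap.

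Among the members themselves, the nuclease and the type II metacaspase varied inversely from sample to sample at 3 d. The values are correlations across samples of log2(TPM + 1) after subtracting each group's mean, given as a description, since both genes of a point come from 1 library with 1 TPM total. At 3 d (n = 15) Pearson's r between the *BFN1* homolog and Sobic.004G187200 was -0.85 and Spearman's rho was -0.81, while at 10 d (n = 14) they were 0.02 and -0.11. The intact *dd* stems of 3 d show it directly: the samples with 235 and 319 TPM of the nuclease had 0.201 and 0.205 TPM of the metacaspase, and those with 116 and 80.4 TPM had 2.75 and 4.5 TPM. Among the decapitated *dd* stems of that day, the samples with 209 and 275 TPM of the nuclease had 0.0805 and 0.0367 TPM, and the one with 87.6 TPM had 2.75 TPM. Over both days (n = 29) r was -0.60, and -0.47 without the 2 samples farthest from the median of the nuclease. Between the *BFN1* homolog and the metacaspase Sobic.003G325500 the within-group r was -0.74 at 3 d and -0.47 at 10 d. Of the 6 stem pairs of members, the nuclease and the type II metacaspase at 3 d had the r largest in size on either day. The type II metacaspase was under 1 TPM in several of these samples, and the difference between the days was not tested.

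**Figure D4:**
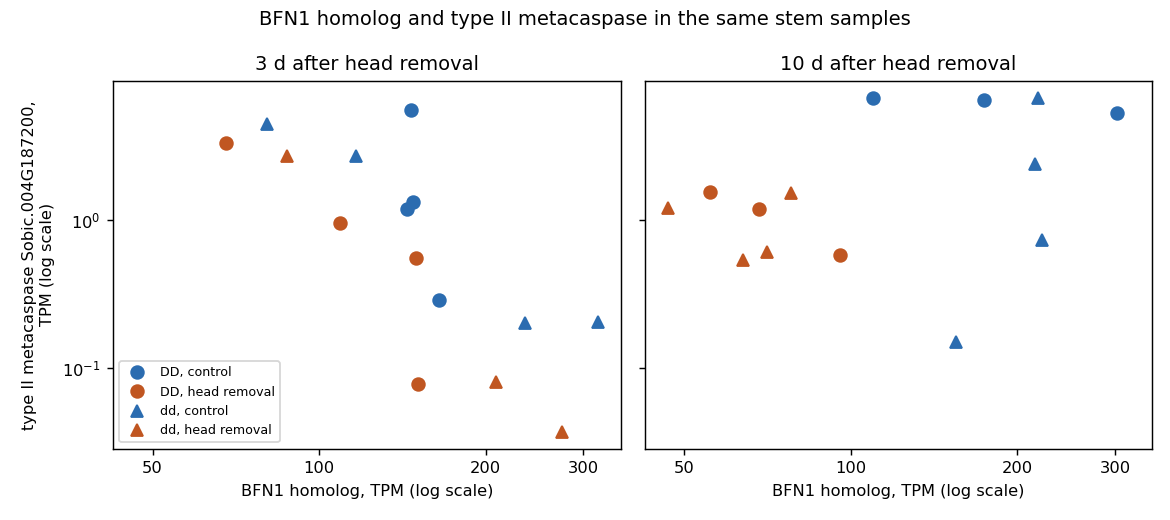
Stem level of the type II metacaspase Sobic.004G187200 against that of the *BFN1* homolog, both in TPM on logarithmic axes, 1 point per sample, with 15 samples at 3 d and 14 at 10 d, coloured by treatment and shaped by genotype. At 3 d samples high in one gene are low in the other, and at 10 d no such order is seen.

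The gene whose stem pattern was most like that of the *BFN1* homolog across the 29 samples was Sobic.002G130700, a papain-like cysteine protease (r = 0.92 over all samples and 0.86 within groups). Its mean was 86.0 ± 18.5 TPM in controls and 31.0 ± 3.21 TPM in decapitated stems at 10 d (SD, n = 7 each), with a log2 difference of -1.41 (adjusted p = 8.54e-06). The next were Sobic.004G179300, a chloride channel (r = 0.89), Sobic.003G395400, with BTB and TAZ domains (r = 0.88), Sobic.010G199200, an amino acid transporter (r = 0.87), and Sobic.004G006200, a ferrochelatase of heme synthesis (r = 0.87). Their log2 differences at 10 d after head removal were -0.66, -1.61, -0.58 and -0.33 in that order, each called. The likeness was measured over all samples, the treatment difference included, so these differences and that of Sobic.002G130700 follow in part from the choice of genes, and 17.3% of all stem genes were called lower at 10 d.

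Nearest to the type II metacaspase Sobic.004G187200 stood Sobic.006G277100, with an EamA transporter domain (r = 0.92), and Sobic.005G035300, a precursor of the peptide hormone phytosulfokine (r = 0.92). The former had 19.4 ± 3.17 TPM in intact *DD* stems at 10 d (SD, n = 3) and 2.81 ± 1.48 TPM after head removal, and was called lower at 10 d (-1.95, adjusted p = 0.00262). The latter had 64.2 ± 28.8 and 5.71 ± 4.93 TPM in the same groups (SD, n = 3 each) and missed the threshold at 10 d (-2.84, adjusted p = 0.0118). Sobic.003G300000, which has no description, followed (r = 0.90), and then Sobic.003G137600, a chitinase (r = 0.89), and Sobic.003G089300, a copper transport protein (r = 0.89). The chitinase was called lower at 10 d (-2.08, adjusted p = 0.00281), and the same limit of the choice holds for these genes. For the carboxypeptidase Sobic.004G010000 the nearest gene was Sobic.005G163100, with a RING finger (r = 0.88), and for the metacaspase Sobic.003G325500 it was Sobic.003G212500, a mitochondrial co-chaperone of the HscB type (r = 0.86).

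The metacaspases gave 1 call in each direction after head removal in stems, and the call higher was the member Sobic.003G325500 itself. Of 7 metacaspases measured in stems, both members included, 1 was called higher, 1 was called lower and 5 were not called after head removal, with a median log2 difference of -0.34 against -0.06 over all genes. The share called was 14.3% in each direction, beside 23.5% of all stem genes called lower and 14.4% higher. Each share is 1 gene, too few to set the family apart from all genes. Sobic.001G351100, listed below among the regulators, also holds a caspase domain and is not in this count. The call lower was Sobic.001G351400, the most abundant of them at 290 TPM on average, which differed by -0.57 ± 0.16 in stems (adjusted p = 0.00523) and by -0.95 ± 0.24 in leaves (adjusted p = 0.00615). Reads shared with its near neighbour in the ID order, Sobic.001G351200 (-0.51 in stems, adjusted p = 0.0106), cannot be resolved from TPM. Sobic.004G085800, the other gene described as metacaspase-9, averaged 1.56 TPM in stems and differed by genotype, with 2.60 ± 1.91 TPM in *DD* (SD, n = 14) and 0.576 ± 1.10 TPM in *dd* (SD, n = 15), a log2 difference of -1.13 ± 0.28 (adjusted p = 0.00388). The *dd* samples alone would not have met the condition of more than 3 TPM in at least 2 samples. This difference by genotype is therefore not independent of the choice of genes. The head removal effect of Sobic.004G085800 was -0.34 (adjusted p = 0.322). The type II metacaspase Sobic.004G187200, with -0.48 by genotype, was not called.

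Of the other S1/P1-type nucleases, Sobic.006G244400 was measured in both organs and Sobic.006G244500, of the same description, in leaves, where it averaged 7.72 TPM and differed by 0.01 after head removal (adjusted p = 0.976). Sobic.006G244400 averaged 2.02 TPM in stems and was lower in *dd* by -1.28 ± 0.21 (adjusted p = 0.000100), with 3.6 ± 2.88 TPM in *DD* (SD, n = 14) and 0.547 ± 0.394 TPM in *dd* (SD, n = 15). No *dd* stem sample of it exceeded 1.33 TPM, so the *dd* samples alone would not have met the condition of more than 3 TPM in at least 2 samples. This difference by genotype is therefore not independent of the choice of genes. The head removal effect of Sobic.006G244400 was -0.50 (adjusted p = 0.0442), while the *BFN1* homolog itself had no called genotype effect. In leaves its effect was 0.88 (adjusted p = 0.0242), not called, and of the same sign as the 0.39 of the *BFN1* homolog. The pattern of this list also took Sobic.007G110200, described as related to bifunctional nuclease. Its description names another family entry than those of the nucleases above, so it may not be of the S1/P1 type. It rose with day in stems (0.84, adjusted p = 6.96e-06) and had no called head removal effect (0.28, adjusted p = 0.0643).

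Of the other families, 6 of 12 papain-like cysteine proteases, 5 of 19 serine carboxypeptidases, 3 of 10 cell death inhibitors and regulators and 1 of 6 cystatins were called lower in stems after head removal, and 2 of the carboxypeptidases, 1 of the regulators and 1 of the cystatins were called higher. The 3 vacuolar processing enzymes were not called, with Sobic.003G190100 nearest to the threshold (-0.39, adjusted p = 0.0104). The papain-like proteases, a family with vacuolar enzymes that digest dying cells, included Sobic.001G086800 (-1.72 ± 0.49, adjusted p = 0.00465), Sobic.002G130700 (-0.90 ± 0.16, adjusted p = 5.02e-05) and the abundant Sobic.006G242000 (-0.47, adjusted p = 2.94e-05, 486 TPM on average). Among carboxypeptidases, Sobic.005G129600 fell by 2.63 ± 0.18 on the log2 scale (adjusted p = 2.44e-11) and Sobic.008G163200 by 1.02 ± 0.17 (adjusted p = 2.33e-05), beside the uncalled -0.76 of Sobic.004G010000. The inhibitors and regulators called lower included Sobic.005G166100, related to Bax inhibitor, a family that restrains cell death (-0.80, adjusted p = 0.00668), and Sobic.001G351100 (-0.84, adjusted p = 0.000138), which was listed by its LSD1-type zinc finger but also holds the caspase domain of metacaspases. Over the 7 families, 17 of 60 genes (28.3%) were called lower and 5 (8.33%) higher in stems, beside 23.5% and 14.4% of all genes, with a median of -0.29 against -0.06. Scaling by median ratios moved these counts to 11 lower and 8 higher of the 60. Of all 16942 stem genes, 2985 were then called lower and 3078 higher, so the share called lower in the families was close to that of all genes. The same scaling moved the share of lower among all stem calls for head removal from 62.0% to 49.2%.

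In leaves, 10 of 62 genes of these families (16.1%) were called higher after head removal and 5 (8.06%) lower, beside 4.32% and 7.05% of all genes. The calls higher include *SbXCP1* (2.53, adjusted p = 0.000851), the related protease Sobic.009G008800 (2.09, adjusted p = 0.00239), the vacuolar processing enzyme Sobic.009G257400 (1.07, adjusted p = 0.000998) and 3 cystatins, which inhibit such proteases. The decapitated *DD* leaf samples of 3 d replicates 2 and 3 stood apart on the first principal component. Leaving both out lowered both counts, but it keeps only 1 sample of that group, so those counts are not given. With any 1 leaf sample left out, the counts ran from 6 to 11 higher and from 1 to 6 lower. The shares of all leaf genes called in these reduced fits are not given here, so the counts cannot be set against a background. Neither member measured in leaves was among these calls.

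**Figure D5:**
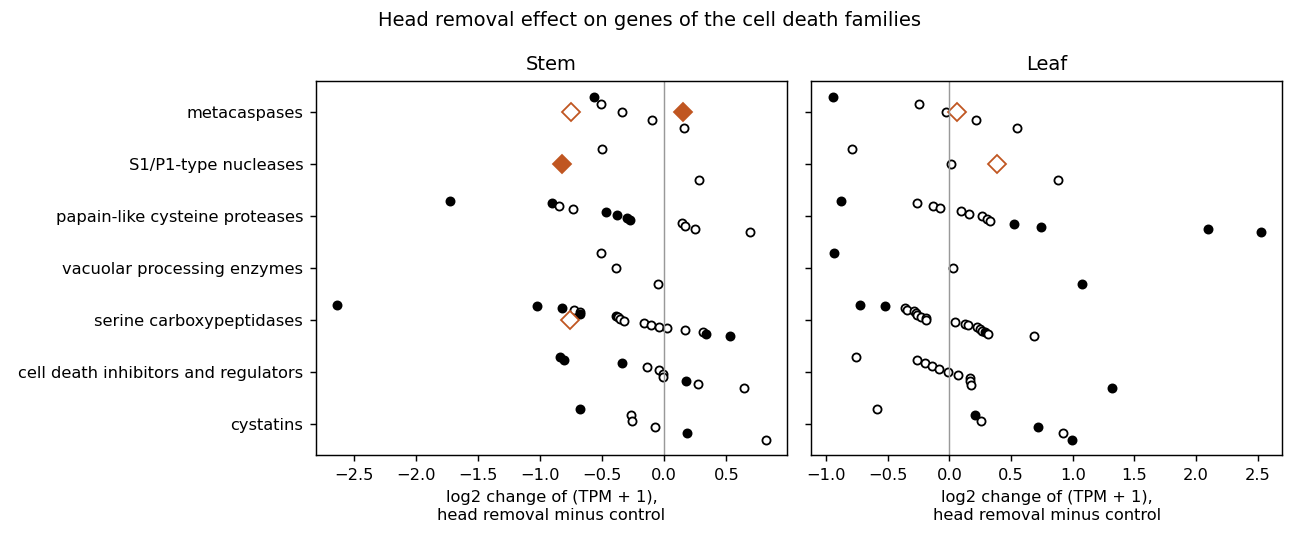
Log2 difference of (TPM + 1) after head removal for every gene of 7 cell death families in stems and leaves, 1 point per gene, filled where the adjusted p was under 0.01, with the members as diamonds. In stems the *BFN1* homolog, at -0.83, and the metacaspase Sobic.003G325500, at 0.15, are the filled diamonds, and no member is filled in leaves.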

How the data were processed

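The deposited stem and leaf tables hold TPM values, which the authors made from trimmed mRNA sequencing reads; the labels name FastQC, Trimmomatic, STAR and DESeq2 without versions, and the genome build is not given in the sources used here. Every gene listed exceeded 3 TPM in at least 2 samples of its table. Of 64 samples described, 53 had a column and 11 were not analysed here.

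TPM are not counts, so log2(TPM + 1) was fitted with limma 3.58.1 in R 4.3.3 (lmFit, eBayes with a trend), per organ and over all genes, with additive terms for treatment, genotype and day and, in a second fit, 8 group means. P-values were adjusted by Benjamini-Hochberg over all genes of the organ and called under 0.01. A change of a scarce gene is understated on this scale. Exact permutation tests (12, unadjusted) exchanged treatment labels within genotype. The fits were tested on simulated data. Alternatives covered the pseudocount (0.1, 3), filters, scaling, sample weights, a replicate block and leaving out samples.

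The members and the gene lists, which were drawn from patterns in the gene descriptions, were chosen with earlier results of these data known. Genes named beside the members were the 5 most like each (mean of at least 3 TPM), genes of lists of 12 or fewer, and at most 3 called genes of a larger list. The design was taken from the labels and the study's methods.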

Additional observations from a re-analysis of the deposited data

Results flagged for a closer look

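Each of the 4 genes was looked at in each stem group of 4 samples, which gave 20 sets of values. In 3 of these sets 1 sample lay far from the other 3. Chance gives about 1 such case in 20 independent sets, but these sets share libraries, so that number is only a rough guide. The *BFN1* homolog Sobic.003G087200 had 164.419 TPM in replicate 2 of the *DD* controls at 3 d, where the nearest other sample had 147.742 TPM, in a group with a narrow range. The same gene had 154.553 TPM in replicate 4 of the *dd* controls at 10 d, below the next sample at 214.997 TPM and still above all decapitated samples of that day. This sample is 1 of the pair that stood apart on the first principal component. The carboxypeptidase Sobic.004G010000 had 10.0045 TPM in replicate 1 of the *dd* controls at 3 d, where the next highest sample had 1.45219 TPM.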

How the results depend on the processing

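Leaving out 1 sample kept the calls of the *BFN1* homolog after head removal in stems (-0.94 to -0.73) and at 10 d (-1.65 to -1.29), and those of Sobic.003G325500 (0.13 to 0.17, and 0.18 to 0.23 at 3 d).

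The genotype effect of Sobic.004G010000 in stems was no longer called with a pseudocount of 3 (-0.63), median-ratio scaling (-0.99), quantile normalization (-0.91), a treatment-by-day term (-1.03), the replicate number as a block (-1.04) or without the *dd* controls of 10 d replicates 3 and 4 (-1.06), and ran from -1.18 to -0.92 with 1 sample left out. The stem day effect of Sobic.003G325500 was no longer called with median-ratio scaling (-0.038), quantile normalization (-0.10) or sample weights (-0.11), and ran from -0.15 to -0.11 with 1 sample left out. The cause was not tested. Without those *dd* controls, Sobic.004G187200 became called (-0.97 over both days). They were its lowest samples in that group, so the change follows in part from the samples left out.

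Uncalled values changed sign as follows. For Sobic.003G325500 in leaves, the day effect was -0.083 with median-ratio scaling, -0.052 with quantile normalization and -0.049 without the decapitated *DD* samples of 3 d replicates 2 and 3 (-0.040 to 0.073 with 1 sample left out), the genotype effect was -0.024 with median-ratio scaling and -0.048 without that pair (-0.039 to 0.080), the effect at 3 d was 0.061 without that pair, and the head removal effect ran from -0.0017 to 0.11. For the *BFN1* homolog in leaves, the effect in *DD* at 3 d was -0.103 without that pair, and the effect at 10 d minus 3 d was 0.033 with quantile normalization and 0.129 without that pair (-0.155 to 0.134). In stems, the *BFN1* homolog at 3 d had 0.143 with sample weights (-0.33 to 0.077), Sobic.004G010000 had 0.084 for 10 d minus 3 d with sample weights (-0.51 to 0.086) and -0.216 and -0.223 for *dd* minus *DD* with a pseudocount of 0.1 and sample weights, and Sobic.004G187200 had -0.173 for the latter with sample weights. With 1 sample left out, the effect of head removal in *dd* minus *DD*, averaged over both days, ran from -0.110 to 0.319 for the *BFN1* homolog and from -0.269 to 0.325 for Sobic.004G010000. Within single groups in stems it ran from -0.264 to 0.556 for the *BFN1* homolog in *dd* at 3 d, from -0.790 to 0.054 for Sobic.004G187200 in *DD* at 3 d and from -0.891 to 0.028 in *dd* at 10 d, and from -0.0047 to 0.119 for Sobic.003G325500 in *DD* at 10 d. In leaves it ran from -0.113 to 0.389 for the *BFN1* homolog in *DD* at 3 d and from -0.044 to 0.334 for Sobic.003G325500 in *dd* at 3 d.

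Counts over the 7 families, an alternative added after the data were seen, moved in stems to 11 lower and 8 higher with median-ratio scaling (12 to 19 and 4 to 6 with 1 sample left out). With that scaling, 2985 of all 16942 stem genes were called lower and 3078 higher. In leaves they moved to 3 lower and 6 higher with a mean of at least 10 TPM, 3 lower with group means, 2 lower and 6 higher with the replicate block, and 0 lower and 4 higher without the pair of leaf samples (1 to 6 and 6 to 11). The replicate block changed no other call. Samples of the same number did not deviate together (median r = -0.015 in stems, -0.059 in leaves). Depth is unknown, so the precision of the scarce genes under 1 TPM rests on the spread between samples alone.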

Other observations

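Clock genes were set beside the members after their values had been seen, as a description over the same libraries. In stems TOC1 (Sobic.004G216700), an evening gene of the plant circadian clock, ran from 9.47 to 27.5 TPM. Within groups (n = 29), its r was 0.72 with the type II metacaspase Sobic.004G187200, with 0.76 at 3 d and 0.68 at 10 d, and -0.52 with the *BFN1* homolog, with -0.71 at 3 d and -0.18 at 10 d. In leaves PRR7 (Sobic.001G411400), another clock gene, ran from 234 to 609 TPM, and its within-group r with Sobic.003G325500 was 0.84 (n = 24), with 0.85 at 3 d and 0.83 at 10 d. For each of these genes the pair printed is the strongest among TOC1, PRR7 and LHY (Sobic.007G047400). In stems, r with LHY and PRR7 was -0.43 and -0.18 for Sobic.004G187200 and 0.49 and 0.37 for the *BFN1* homolog. In leaves, r with Sobic.003G325500 was -0.62 for TOC1 and 0.32 for LHY, and r with the *BFN1* homolog lay between -0.24 and 0.04. The hour of sampling is not given in the sources used here, and its part in these values was not tested.

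*SbNAC074A* fell with day in stems (-2.55 on the log2 scale), from 21.6 to 6.30 TPM in *DD* controls and from 12.5 to 0.911 TPM in decapitated *DD* stems. The *BFN1* homolog, in the same 4 groups, had means of 151, 195, 119 and 73.2 TPM.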
